A study of Mus musculus with 6 samples.

Results

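The genes encoding the sensors of endoplasmic reticulum (ER) stress and the kinases that phosphorylate the translation factor eIF2α were examined in MC3T3-E1 cells given sulfasalazine. They are Ern1, Xbp1, Atf6, Atf6b and Creb3l2 on the side of the ER, and the kinase genes Eif2ak1, Eif2ak2, Eif2ak3 and Eif2ak4. They were chosen by gene name. All 9 are among the 14003 genes of the table and all 9 passed the filter on low values.

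The ER folds secreted and membrane proteins, and unfolded protein in its lumen is read by membrane sensors. IRE1α, the product of Ern1, is a kinase and ribonuclease that cuts an intron out of the Xbp1 mRNA, and the spliced mRNA encodes a transcription factor for chaperone, degradation and secretory genes. ATF6 and its paralog ATF6B leave the ER for the Golgi, where proteases release their transcription factor domains, and CREB3L2, a related factor, is activated in the same way and supports the secretory load of matrix-producing skeletal cells. PERK, the product of Eif2ak3, is the third sensor and an eIF2α kinase. HRI (Eif2ak1) responds to low haem and to mitochondrial or protein damage in the cytosol, PKR (Eif2ak2) to double-stranded RNA, and GCN2 (Eif2ak4) to uncharged tRNA. Phosphorylated eIF2 lowers translation in general and favours that of the Atf4 mRNA. ATF4 is the transcription factor at the head of the integrated stress response, and osteoblasts need it to make matrix.

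Total RNA was sequenced from 6 samples of MC3T3-E1, a mouse preosteoblast line from calvaria, all labelled wild type and all carrying the same batch label. The 3 control samples were untreated, with no vehicle named, and the 3 treated samples received 200 µM sulfasalazine, an anti-inflammatory drug, for 24 h. The series title speaks of NF-kB signalling and fracture healing. No label says that the replicates came from separate cultures, and the spread behind the p-values may thus be technical. The libraries held 15980936 to 21579133 reads on genes. On the first principal component, with 88.6% of the variance, control replicate 3 scored -42.6, control replicates 1 and 2 scored -65.3 and -63.2, and the sulfasalazine libraries 54.1 to 59.2. Of 16 osteoblast markers listed, 10 had values, and 6 of these averaged below 1 FPKM (fragments per kilobase, scaled to the library). Sp7 (at 0 in 5 libraries) and Col1a1 were among the 6, while Spp1, Runx2 and Sparc averaged 10 FPKM or more. The name of the line is that of the labels, and most listed osteoblast markers had no values or averaged below 1 FPKM. Of 12 epithelial markers listed, 10 had values, and 5 of these averaged below 1 FPKM. Krt8 and Krt18 stood at 287 ± 33.4 and 708 ± 61.1 FPKM in controls (SD, n = 3). The summed level of the osteoblast markers was 1554 to 2145 FPKM in controls and 892 to 1113 with sulfasalazine, and that of the epithelial markers 1536 to 1726 and 1972 to 2207. The first sum is nearly all Spp1 (1513 to 2077 and 851 to 1057 FPKM). The second is mostly Krt18, Krt8 and Krt19, at means of 708, 287 and 350 FPKM in controls and 913, 902 and 154 FPKM with sulfasalazine. Other genes share 26.9% of the 50-base words of Krt8. Of 4 osteoblast markers tested 2 fell, Spp1 and Runx2, and Sparc did not pass, at 22.4 ± 18.4 and 23.1 ± 7.44 FPKM. Of 5 epithelial markers tested Krt8 and Krt18 rose while Krt7 and Krt19 fell. The calls of Runx2 and Krt18 were lost in 5 and 7 of 15 alternative fits. The part of these differences in the results below was not tested.

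The level of Xbp1 is given here for the gene as a whole, and the regulated step lies inside its mRNA. In the annotated transcript Xbp1-201 the IRE1 site was found as a pair of CNGCAGN motifs, with the cut after the third base of each, 26 bases apart. It is printed because removal of the 26 bases, in capitals, changes the reading frame, and the open frame grows from 267 to 371 codons; base 814 of the transcript is the last one before the first cut.
Xbp1 site: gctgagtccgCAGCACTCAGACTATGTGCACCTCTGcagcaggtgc
The transcript holds 7 CNGCAGN motifs and a second pair at this spacing, whose removal would give a frame of 216 codons. FPKM values per gene do not separate spliced from unspliced mRNA, so nothing below measures the activity of IRE1α.

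Of the 9 genes, 5 rose with sulfasalazine (Eif2ak1, Creb3l2, Atf6b, Eif2ak2 and Eif2ak4), 3 fell (Ern1, Atf6 and Xbp1), and Eif2ak3 did not pass the test (limma on log2(FPKM + 1), Benjamini-Hochberg adjusted p under 0.05 over 10338 genes). Most of the transcriptome differed between the groups. Over all genes tested, 66.5% were called, 37.2% higher and 29.3% lower, and the median log2 fold change was 0.08. The groups did not overlap for 8 of the 9 members, against 71.4% of all genes tested. An absolute log2 fold change of at least 1 was reached by Ern1, Atf6, Creb3l2 and Eif2ak1, 4 of the 9, and 33.2% of all genes tested were called at that size or more. The share of called members, 88.9% of 9 genes, is not read as a result, since the list is small and was chosen with earlier results known. Each gene is therefore described by its size and direction. The calls of Eif2ak2 and Eif2ak4 were lost in 6 and 10 of 15 alternative fits, and the other 6 calls held in all 15. The count of 5 that rose was 3 without control replicate 2, sulfasalazine replicate 1 or sulfasalazine replicate 3, and 3 under quantile normalization, with 3 that fell in each. In these bulk samples, less RNA per cell and fewer cells that hold it cannot be told apart.

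**Figure D1:**
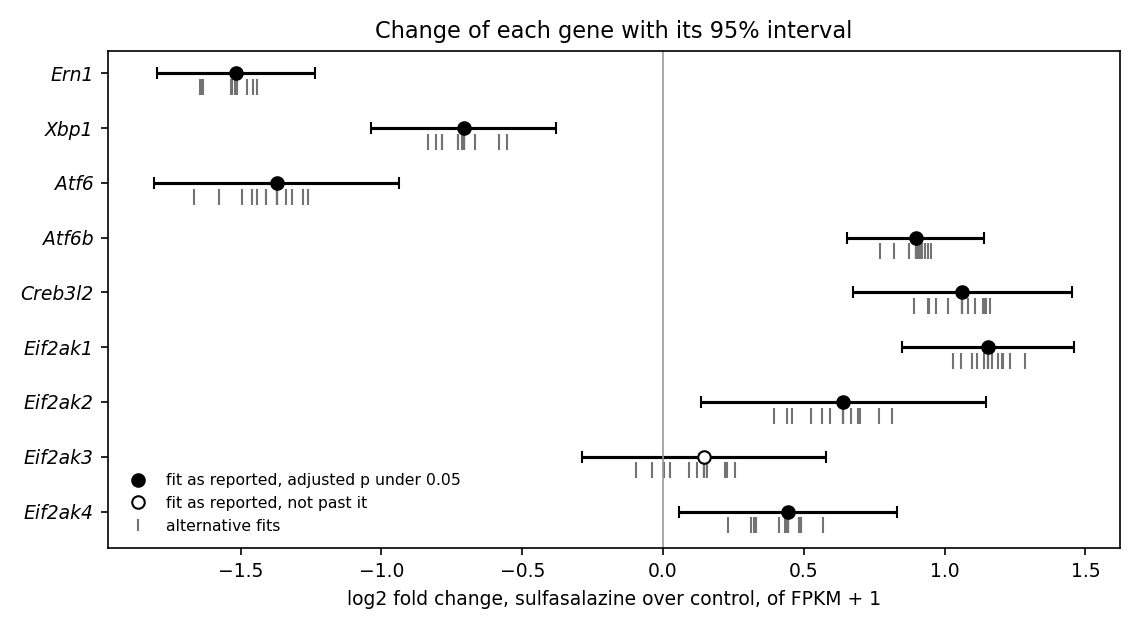
Log2 fold change of each gene, sulfasalazine over control, on the log2(FPKM + 1) scale, with points for the estimate, bars for its 95% interval and short ticks for the 15 alternative fits. Ern1, Atf6 and Xbp1 lie left of 0 and Eif2ak1, Creb3l2 and Atf6b right of it in each fit, and the interval of Eif2ak3 (open point) spans 0.

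Ern1 (ENSMUSG00000020715; GRCm38 chromosome 11, 106394650 to 106487852, minus strand) measured 164, 157 and 126 FPKM in control replicates 1 to 3 and 50.6, 51.3 and 51.2 FPKM in sulfasalazine replicates 1 to 3. Each treated library was below each control, and the treated libraries lay close together. The group values were 149 ± 20.3 and 51.0 ± 0.393 FPKM (SD, n = 3), and the log2 fold change was -1.52 (SE 0.12, limma adjusted p = 2.5e-05). Of all genes tested, 5.89% had a lower log2 fold change. Ern1 was among the more abundant genes, with 91.2% of tested genes below its mean control level.

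Xbp1 (ENSMUSG00000020484; chromosome 11, 5520659 to 5525893, plus strand) measured 178, 246 and 178 FPKM in control replicates 1 to 3 and 124, 114 and 125 FPKM after sulfasalazine. The groups did not overlap, and control replicate 2 stood above the other controls. The fall was from 201 ± 39.2 to 121 ± 5.72 FPKM (limma log2 fold change -0.71 with SE 0.14, adjusted p = 0.0027). Without control replicate 2 the log2 fold change was -0.55, still past the threshold. The ratio of Ern1 to Xbp1, in FPKM, went from 0.755 ± 0.148 to 0.422 ± 0.0224, and each treated ratio was below each control ratio. The difference between these genes was not tested.

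Atf6 (ENSMUSG00000026663; chromosome 1, 170704674 to 170867771, minus strand) measured 60.9, 59.5 and 38.9 FPKM in control replicates 1 to 3 and 18.6, 18.0 and 22.2 FPKM after sulfasalazine. All treated values were below all control values, and control replicate 3 was the lowest control. The mean went from 53.1 ± 12.3 to 19.6 ± 2.25 FPKM (limma log2 fold change -1.37 with SE 0.19, adjusted p = 0.00035), and without control replicate 3 the log2 fold change was -1.58.
Its paralog Atf6b (ENSMUSG00000015461; chromosome 17, 34647146 to 34655074, plus strand) measured 59.7, 69.8 and 71.0 FPKM in control replicates 1 to 3 and 122, 124 and 129 FPKM after sulfasalazine. Here every treated library was above every control. The mean went from 66.8 ± 6.20 to 125 ± 3.62 FPKM (limma log2 fold change 0.90 with SE 0.11, adjusted p = 0.00016). The ratio of Atf6 to Atf6b was 1.02, 0.852 and 0.548 in the controls, in replicate order, and 0.152, 0.145 and 0.172 after treatment. Each treated ratio was below each control ratio, and the controls were uneven. Per kilobase of the longest coding transcript, a length scale taken up again below, the ratios were 1.40, 1.17 and 0.7496 in the controls. After treatment they were 0.208, 0.199 and 0.235. Which paralog led depended on the length used in control replicate 2 only, while Atf6b led in each treated library on both scales.

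Creb3l2 (ENSMUSG00000038648; chromosome 6, 37327255 to 37442146, minus strand), for the related membrane-bound factor, measured 6.53, 8.89 and 8.47 FPKM in control replicates 1 to 3 and 17.1, 15.8 and 20.2 FPKM after sulfasalazine. The lowest treated library was well above the highest control. The mean went from 7.96 ± 1.26 to 17.7 ± 2.25 FPKM (limma log2 fold change 1.06 with SE 0.17, adjusted p = 0.00076).

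**Figure D2:**
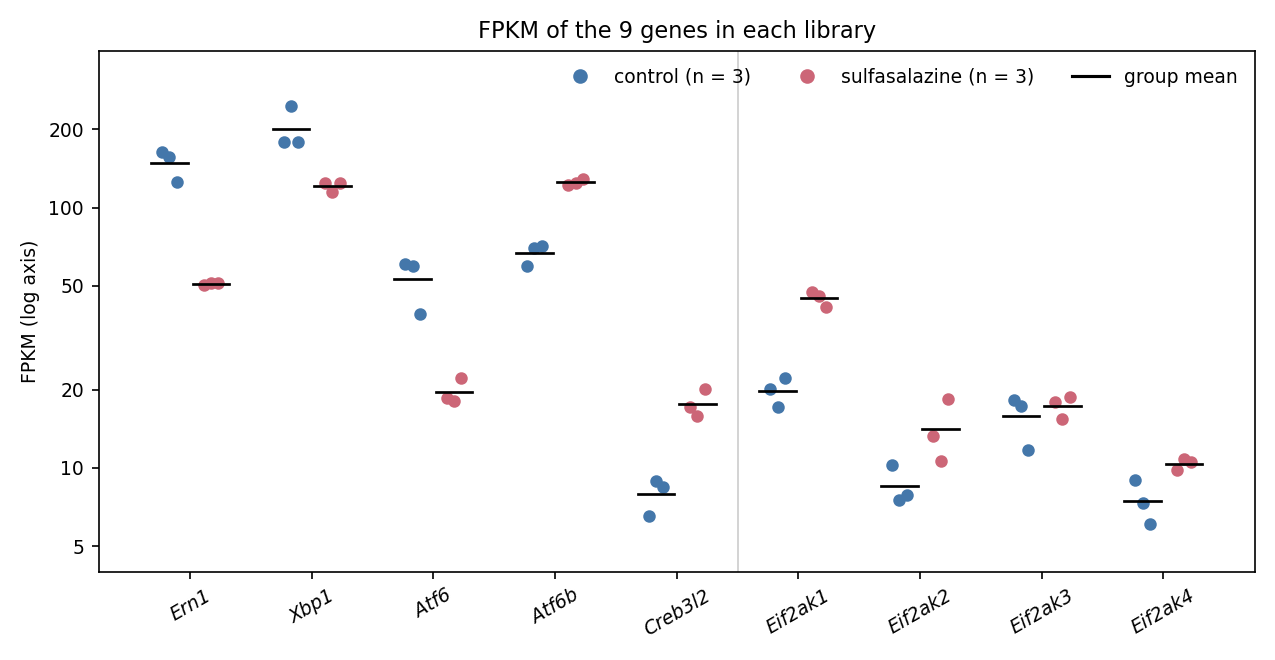
FPKM (log axis) of the 9 genes in each of the 6 libraries, with a bar for the mean of each group of 3. The groups are apart for Ern1, Xbp1, Atf6, Atf6b, Creb3l2, Eif2ak1, Eif2ak2 and Eif2ak4 and overlap for Eif2ak3, where control replicate 3 at 11.8 FPKM lies below all other libraries.

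Among the kinases, Eif2ak1 (ENSMUSG00000029613; chromosome 5, 143817788 to 143904251, plus strand) had the largest change. It measured 20.1, 17.1 and 22.1 FPKM in control replicates 1 to 3 and 47.6, 45.9 and 41.7 FPKM after sulfasalazine. The groups were far apart relative to their spread, with 19.8 ± 2.51 against 45.1 ± 3.05 FPKM (limma log2 fold change 1.15 with SE 0.13, adjusted p = 0.00014). Of its exonic bases 11.6% lie in Aimp2 on the opposite strand, and the sources used here do not state whether the counting used strand. Aimp2, a scaffold of the tRNA synthetase complex, did not move the same way, at 59.4 ± 10.1 FPKM in controls against 51.9 ± 3.01 FPKM after treatment (limma log2 fold change -0.18, adjusted p = 0.288).

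Eif2ak2 (ENSMUSG00000024079; chromosome 17, 78852564 to 78882573, minus strand) measured 10.2, 7.51 and 7.85 FPKM in control replicates 1 to 3 and 13.2, 10.6 and 18.5 FPKM after sulfasalazine. The groups barely cleared each other, since sulfasalazine replicate 2 lay just above control replicate 1, and sulfasalazine replicate 3 stood apart from its group. The mean went from 8.54 ± 1.49 to 14.1 ± 3.997 FPKM (limma log2 fold change 0.64 with SE 0.22, adjusted p = 0.031). Without replicate 3 of both groups the log2 fold change was 0.39 (limma adjusted p = 0.079), and over the 15 alternative fits the adjusted p ranged from 0.019 to 0.098. The value rests on 200 to 566 reads per library, the fewest among the 9 genes, and 4.32% of its exonic bases lie in Gm26637 on the opposite strand.

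Eif2ak2 is an interferon-stimulated gene, and a list of 24 others of that class was examined beside it. Of 20 tested, 1 rose, 5 fell and 14 did not pass, with a median log2 fold change of -0.31. Over all genes tested 37.2% were higher and 29.3% lower, with a median of 0.08. The rise was that of Stat2, a transcription factor of the interferon response, from 13, 10.1 and 21.5 FPKM to 38.9, 36.7 and 64.9 FPKM. Its highest value in each group was in replicate 3. Usp18, which dampens interferon signalling, went the other way, from 14.5 ± 8.40 to 3.89 ± 2.40 FPKM (limma log2 fold change -1.64 with SE 0.43). The summed level of the list was 320, 230 and 446 FPKM in the controls, in replicate order, and 261, 265 and 467 FPKM after treatment. In sulfasalazine replicate 3, Eif2ak2 and this sum were both at their highest. In the controls the sum was highest in replicate 3, but Eif2ak2 in replicate 1 (10.2 FPKM, against 7.85 FPKM in replicate 3). A link between the gene and the sum was not tested. The lower count of 5 was 10 without sulfasalazine replicate 3 and 3 without control replicate 1 or sulfasalazine replicate 1 or 2. The higher count was 3 without control replicate 3, and without replicate 3 of both groups the list had 3 higher and 9 lower genes. With the replicate block 3 were higher and 7 lower, and under quantile normalization 1 and 8.

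Eif2ak3 (ENSMUSG00000031668; chromosome 6, 70844515 to 70905245, plus strand) measured 18.3, 17.4 and 11.8 FPKM in control replicates 1 to 3 and 18.0, 15.3 and 18.7 FPKM after sulfasalazine. The groups overlapped, and the lowest of the 6 libraries was control replicate 3. With 15.8 ± 3.52 and 17.3 ± 1.77 FPKM, the log2 fold change was 0.15 (95% interval -0.29 to 0.58, limma adjusted p = 0.511). A rise or fall of the size seen for Ern1, Xbp1, Atf6, Atf6b, Creb3l2, Eif2ak1 or Eif2ak2 lies outside this interval. The spread behind the interval may be technical. Without control replicate 3 the log2 fold change was -0.041, so its direction is not set by these data. Of its exonic bases 8.05% lie in Gm43292 on the opposite strand.

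Eif2ak4 (ENSMUSG00000005102; chromosome 2, 118388618 to 118475234, plus strand) measured 8.96, 7.32 and 6.10 FPKM in control replicates 1 to 3 and 9.79, 10.9 and 10.5 FPKM after sulfasalazine. The treated libraries lay above all controls, by a small margin over control replicate 1. The means were 7.46 ± 1.44 and 10.4 ± 0.553 FPKM (limma log2 fold change 0.44 with SE 0.17, adjusted p = 0.046). Median-of-ratios scaling removed this call (limma adjusted p = 0.106), and it was also lost in 5 of the 6 fits that each left out 1 library, and in 4 other fits, with an adjusted p from 0.021 to 0.234 over all 15.

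In the authors' deposited table the log2 fold changes were -1.64 for Ern1, -0.83 for Xbp1 and -1.54 for Atf6, and 0.80, 1.04 and 1.09 for Atf6b, Creb3l2 and Eif2ak1. The authors' deposited table gives Eif2ak2 a log2 fold change of 0.62 with an adjusted p of 0.0347 and Eif2ak4 one of 0.38 with an adjusted p of 0.116. For Eif2ak3 the authors' deposited table has 0.03. The directions were those of the present fit for each of the 9 genes, and at an adjusted p under 0.05 the call differed for Eif2ak4 only. The authors' own labels were narrower. They mark Ern1 and Atf6 as down, Creb3l2 and Eif2ak1 as up, and the other members, Xbp1, Atf6b and Eif2ak2 among them, as not significant. The authors' adjusted p was nonetheless 3.3e-05 for Xbp1 and 1.2e-05 for Atf6b. Only the members marked up or down have an absolute log2 fold change above 1 in the authors' values.

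Levels were set side by side within each group. In FPKM, the control order ran Xbp1 (201), Ern1 (149), Atf6b (66.8), Atf6 (53.1), Eif2ak1 (19.8), Eif2ak3 (15.8), Eif2ak2 (8.54), Creb3l2 (7.96) and Eif2ak4 (7.46). Neighbours whose ranges over 3 libraries overlapped were Atf6b and Atf6, Eif2ak1 and Eif2ak3, and the lowest trio of Eif2ak2, Creb3l2 and Eif2ak4. With sulfasalazine the FPKM order became Atf6b (125), Xbp1 (121), Ern1 (51.0), Eif2ak1 (45.1), Atf6 (19.6), Creb3l2 (17.7), Eif2ak3 (17.3), Eif2ak2 (14.1) and Eif2ak4 (10.4). There Atf6b and Xbp1 overlapped, as did each pair of neighbours from Atf6 downward.

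The length behind an FPKM value matters for such an order. For 97.0% of 13982 genes it was the mean length of the annotated transcripts of the gene, within 1 base, so a gene with many short annotated transcripts gets a higher FPKM. For Ern1 it was 2714 bases, against 6946 for the longest coding transcript, and for Eif2ak4 3726 against 5298. Per kilobase of the longest coding transcript, with the same scaling to library size as FPKM, the levels with sulfasalazine were 70.8 for Xbp1, 58.8 for Atf6b, 23.3 for Eif2ak1, 19.9 for Ern1 and 12.6 for Atf6. On that scale Eif2ak1 lay above Ern1 in the treated libraries, the reverse of the FPKM order, and Xbp1 lay above Atf6b without overlap. In controls, Xbp1 (117) and Ern1 (58.2) led on that scale too, Atf6 (34.2) came before Atf6b (31.4) with ranges that overlap, and Eif2ak2 (3.08) was lowest. The drop of Ern1 from second place was seen on both scales.

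The mix of kinase transcripts was described as the share of each in the summed FPKM of the 4 genes. The sum was 51.6 ± 5.26 FPKM in controls and 86.9 ± 3.61 FPKM with sulfasalazine. Eif2ak1 held 34.9%, 34.7% and 46.3% of it in the controls, in replicate order, and 53.7%, 55.5% and 46.6% after treatment. All treated shares were higher than all control shares, though sulfasalazine replicate 3 exceeded control replicate 3 by very little. Eif2ak3 held 31.7%, 35.2% and 24.6% in the controls and 20.3%, 18.5% and 20.96% with sulfasalazine. Its share was smaller in each treated library than in any control, while its own level did not pass the test and the sum of the 4 genes was higher. The mean shares of Eif2ak2 (16.5% ± 1.28 and 16.1% ± 4.05) and Eif2ak4 (14.4% ± 1.46 and 12.0% ± 1.06) overlapped between groups. Per kilobase of the longest coding transcript the mean share of Eif2ak1 was 40.9% and 54.3%, and that of Eif2ak3 26.2% and 16.9%.
Between the ER sensors that share a luminal domain fold, IRE1α and PERK, the ratio of Ern1 to Eif2ak3 in FPKM went from 8.98, 9.03 and 10.7 to 2.82, 3.34 and 2.73. These ratios do not depend on the scaling between libraries.

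**Figure D3:**
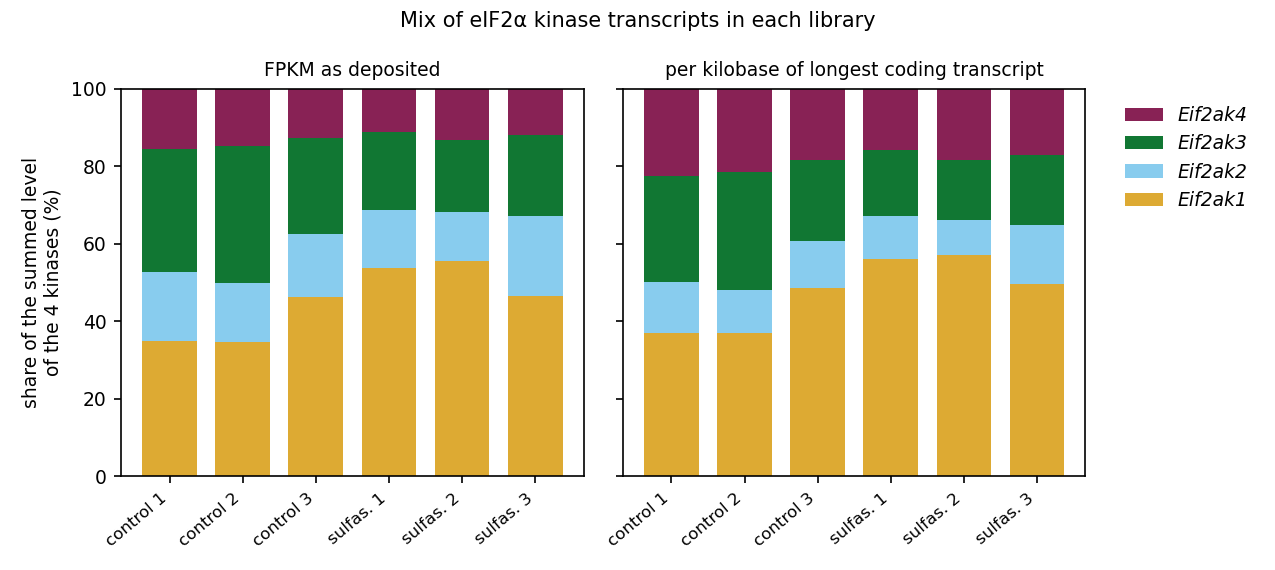
Share (%) of each kinase gene in the summed level of the 4 eIF2α kinase genes, for each library, in FPKM (left) and per kilobase of the longest coding transcript (right). The share of Eif2ak1 is largest in the sulfasalazine libraries, at 46.6% to 55.5% in FPKM, and that of Eif2ak3 is smallest there, at 18.5% to 20.96%.

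The genes around the sensors were read from lists chosen by function, and their counts stand beside the 37.2% higher, the 29.3% lower and the median of 0.08 for all genes tested. Targets of XBP1 and ATF6 in the ER lumen did not follow 1 direction. Of 21 ER chaperones and folding enzymes 11 rose, 5 fell and 5 did not pass, with a median log2 fold change of 0.40. Hspa5, the lumenal chaperone that binds the sensors and keeps them inactive, was the most changed of those that fell, from 1529, 1501 and 920 FPKM to 355, 357 and 482 FPKM (limma log2 fold change -1.70 with SE 0.22). As with Atf6, control replicate 3 was the control nearest to the treated libraries. Dnajb9, a cochaperone that restrains IRE1α, fell from 44.8 ± 14.0 to 16.5 ± 2.62 FPKM. In the opposite direction, Sdf2l1, a partner of the Hspa5 product, rose from 16.5 ± 3.04 to 44.1 ± 3.38 FPKM and Pdia4, a disulfide isomerase, from 54.1 ± 6.21 to 135 ± 8.30 FPKM.

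Of 20 tested genes of ER-associated degradation and translocation 5 rose, 4 fell and 11 did not pass, with a median of 0.02. Edem2, which trims mannose from misfolded glycoproteins, rose from 24.0 ± 3.70 to 77.2 ± 4.31 FPKM, and Os9, a lectin of the same path, from 102 ± 6.72 to 298 ± 17.1 FPKM. Syvn1, the ubiquitin ligase of the degradation complex, rose from 31.7 ± 0.684 to 57.7 ± 2.69 FPKM. Sec61b, a subunit of the translocation channel, rose by 0.88 on the log2 scale, and other genes share 17.4% of its 50-base words. The 5 higher calls held their number when 1 library was left out, but the lower count of 4 was 2 without control replicate 1 or 2, 1 without sulfasalazine replicate 1 or 2, and 8 without replicate 3 of both groups. Under median-of-ratios scaling the list had 5 higher and 6 lower genes.

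Partners of IRE1α split as well: of 13, 7 rose, 3 fell and 3 did not pass (median 0.33), and under median-of-ratios scaling the counts were 3 and 4. Leaving out control replicate 1 or 2, or sulfasalazine replicate 1 or 2, gave 4 higher and 2 lower. Traf2, the adaptor that links IRE1α to JNK signalling, fell from 46.5 ± 2.67 to 15.1 ± 1.73 FPKM (limma log2 fold change -1.57 with SE 0.13). Map3k5, the kinase ASK1 that acts after this adaptor, rose from 10.3 ± 1.01 to 29.98 ± 0.730 FPKM. Tmbim6, a membrane protein that restrains IRE1α, rose from 385 ± 55.8 to 819 ± 24.1 FPKM. Rtraf, of the tRNA ligase complex that joins the cut Xbp1 mRNA, rose by 1.20 on the log2 scale, while 22.7% of that gene lies in Nid2 on the opposite strand. Among 6 tested mRNAs known as substrates of IRE1-dependent decay, 3 rose, 1 fell and 2 did not pass, with 2 higher and 2 lower without sulfasalazine replicate 3 or under quantile normalization and 3 and 2 under median-of-ratios scaling. The fall was that of Hgsnat, from 498 ± 54.6 to 130 ± 6.85 FPKM. Scara3 rose from 3.99, 3.63 and 7.604 FPKM to 13.6, 13.7 and 15.6 FPKM, and Ergic3 from 214 ± 29.0 to 399 ± 29.4 FPKM.

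For ATF6 and the CREB3 family, 5 of 12 processing factors and partners rose, 5 fell and 2 did not pass (median -0.14). Mbtps1, the site-1 protease that makes the first cut in ATF6, rose from 31.7 ± 2.45 to 66.3 ± 0.844 FPKM. Subunits of NF-Y, the factor that ATF6 joins on DNA, moved apart: Nfya rose from 17.3 ± 1.98 to 46.8 ± 4.06 FPKM and Nfyb fell from 46.7 ± 11.6 to 14.2 ± 2.17 FPKM. Scap, the escort protein of the same Golgi proteolysis for sterol factors, rose from 124 ± 15.9 to 243 ± 15.7 FPKM, and 13.2% of that gene overlaps another on the opposite strand.
Of 16 genes of the COPII coat and its cargo receptors, which include known targets of CREB3L2, 7 rose, 2 fell and 7 did not pass (median 0.24). Without sulfasalazine replicate 1 the counts were 4 and 1, without control replicate 1 or 2 or sulfasalazine replicate 2 the lower count was 1, and without replicate 3 of both groups the counts were 8 and 4. Under median-of-ratios scaling they were 5 and 3. Sar1b, the GTPase that starts the coat, rose from 26.8 ± 4.61 to 51.3 ± 4.10 FPKM. The cargo-binding subunit genes Sec24b and Sec24c rose from 36.2 ± 4.63 to 66.1 ± 5.19 FPKM and from 89.3 ± 11.9 to 155 ± 7.38 FPKM. Mia3, for the receptor that loads procollagen, rose from 31.0 ± 7.97 to 46.8 ± 3.39 FPKM, a call lost without sulfasalazine replicate 1 or 3 (limma adjusted p = 0.0689 and 0.0657).

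On the side of the kinases, the substrates were read from 10 genes for eIF2, eIF2B and related factors. Of these 1 rose, 4 fell and 5 did not pass (median -0.36), with 3 higher and 6 lower without replicate 3 of both groups. The lower count was 6 under median-of-ratios scaling, under quantile normalization or without control replicate 3. It was 3 without sulfasalazine replicate 1 or 2. Eif2s1, which encodes eIF2α itself, measured 117, 132 and 107 FPKM in control replicates 1 to 3 and 48.4, 46.9 and 54.9 FPKM after sulfasalazine (limma log2 fold change -1.22 with SE 0.12). Eif2s2, for the β subunit, fell from 93.5 ± 45.9 to 22.3 ± 7.69 FPKM, with uneven controls, and other genes share 10.2% of its 50-base words. Eif2b2 fell from 310 ± 31.5 to 211 ± 14.3 FPKM while Eif2b4, another subunit of the exchange factor that phosphorylated eIF2 inhibits, rose from 23.2 ± 6.94 to 41.8 ± 1.71 FPKM. Of the exonic bases of Eif2b4, 7.85% lie in Snx17 on the opposite strand. In the sulfasalazine libraries the summed kinase transcripts were higher and the Eif2s1 transcript was lower, as most genes differed between the groups. Among the kinase genes only Eif2ak1 kept a call in all 15 alternative fits. A link between kinase and substrate transcripts was not tested.

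Phosphatase subunits and regulators of the kinases changed in both directions, 7 of 20 higher, 8 lower and 5 not past the threshold (median -0.18). The fall of Ppp1r15a, the inducible subunit that brings the phosphatase to eIF2α, was the largest in this list (limma log2 fold change -4.24 with SE 0.20), from 965, 1018 and 766 FPKM to 44.9, 37.3 and 62.6 FPKM. Hsp90ab1, for a chaperone that has HRI among its clients, rose from 1467 ± 215 to 6823 ± 254 FPKM and its kinase cochaperone gene Cdc37 from 36.8 ± 3.32 to 161 ± 19.3 FPKM. Hspa8 rose by 3.29 on the log2 scale, and other genes share 38.6% of its 50-base words.

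The outputs of the integrated stress response were mostly lower. Of 14 tested 12 fell, 1 rose and 1 did not pass, the rise being that of Ddit4, an mTOR inhibitor gene singled out once its value was known. The list had a median log2 fold change of -1.81. The lower count was 11 without any 1 of the 3 sulfasalazine replicates and 12 in the other 12 alternative fits. Atf3, a transcription factor of the response, fell from 180, 292 and 227 FPKM to 22.0, 20.5 and 40.8 FPKM, and Cebpg, the dimer partner of ATF4, from 59.8 ± 16.4 to 11.2 ± 2.97 FPKM. Ddit3 fell by 3.70 on the log2 scale, with an overlap of 10.9% of its exonic bases with another gene entry, and Gdf15 fell by 4.39. None of the 4 kinase genes was called lower, Eif2ak1 was higher with sulfasalazine, and the direction of Eif2ak3 was not set by these data. A link between the kinase transcripts and these outputs was not tested.

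**Figure D4:**
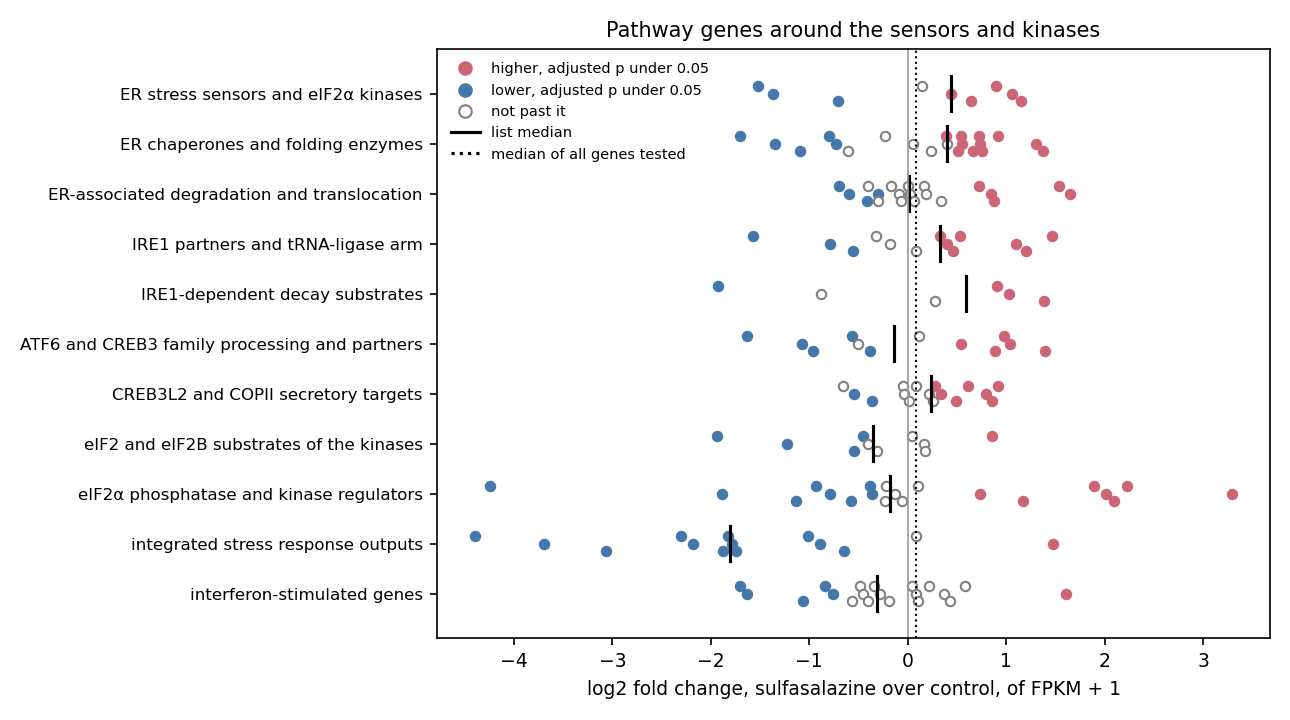
Log2 fold change (sulfasalazine over control, log2(FPKM + 1) scale) of each tested gene in the sensor and kinase group and in 10 lists around it; filled points passed adjusted p under 0.05, bars are list medians and the dotted line is the median of all genes tested, 0.08. The outputs of the integrated stress response lie furthest left, with a median of -1.81, while chaperones, degradation genes and kinase regulators spread to both sides.

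Promoter sequence was examined because the members changed in both directions. RefSeq promoter entries (GRCm38.p6, 250 bases before to 50 after the start) matched 8 of the 9 genes, and Atf6 had no entry in the table used. Searched on both strands, with the share of 27025 promoters that hold each, were the ER stress element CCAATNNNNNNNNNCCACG (0.1295%), the unfolded protein response element TGACGTGG (0.607%), the cAMP response element TGACGTCA (1.88%), the ATF4-type element TGATGNAA (4.06%), the interferon-type element GAAANNGAAA (3.49%) and the antioxidant response element TGACNNNGC (12.5%). The members' windows held no match to the first 4 of these. The antioxidant element letters occurred in Ern1, from -122 to -114 and, on the other strand, from -11 to -3 relative to the start, and in Atf6b, from -71 to -63 on the other strand. Both windows are printed, with the matches in capitals, because the same letters occur in the windows of a gene that fell and of one that rose. The RefSeq start of Ern1 lies inside the gene as placed above, which reaches 106487852. The match from -11 to -3 thus falls within that gene and not upstream of it.
Ern1 (chr11:106487797-106488046, minus strand): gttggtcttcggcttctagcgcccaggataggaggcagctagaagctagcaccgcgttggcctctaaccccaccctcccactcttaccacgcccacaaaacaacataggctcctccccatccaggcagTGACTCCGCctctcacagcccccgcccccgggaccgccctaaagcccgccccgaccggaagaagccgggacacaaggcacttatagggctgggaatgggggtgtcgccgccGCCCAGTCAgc
Atf6b (chr17:34646896-34647145, plus strand): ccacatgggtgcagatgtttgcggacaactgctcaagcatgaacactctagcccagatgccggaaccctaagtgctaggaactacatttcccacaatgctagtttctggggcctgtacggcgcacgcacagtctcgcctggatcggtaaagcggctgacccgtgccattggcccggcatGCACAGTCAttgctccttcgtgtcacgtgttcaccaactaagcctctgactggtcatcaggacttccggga
The interferon-type letters occurred in Eif2ak2, from base 19 to base 28 after the start. The stretch from base 11 to base 40 is printed, with the match in capitals, since it belongs to the class of genes examined beside Eif2ak2 above.
Eif2ak2 (minus strand of chromosome 17): tccgccggGAAAACGAAAcagaagagaacc
A match is a description of the letters, and no binding was measured.

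The genes most like 3 of the members were found by Pearson correlation of log2(FPKM + 1) over the 6 libraries. For Ern1 and Atf6 this measure mostly reflects the difference between the groups. For Ern1 these were Bcl10, an adaptor of NF-kB signalling (r = 0.99995), and Tmem251 (r = 0.9998). Bcl10 measured 82.2, 77.8 and 63.9 FPKM in control replicates 1 to 3 and 27.9, 28.1 and 28.3 FPKM after sulfasalazine, the same order of control libraries as Ern1. For Atf6 they were Dennd4a and Ppp4r2 (r = 0.9998 and 0.9993), both with control replicate 3 as the lowest control: 17.6 FPKM for Dennd4a, against 50.6 and 48.0 FPKM in control replicates 1 and 2. For Eif2ak3, whose groups overlap, they were Zfp971 and 9930021J03Rik (r = 0.998 and 0.996). Neither passed the test and both have overlapping groups. Both were lowest in control replicate 3, at 1.31 and 2.76 FPKM, like Eif2ak3 itself.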

How the data were processed

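RNA-seq values of 6 samples were used, 3 control and 3 given 200 µM sulfasalazine, with groups taken from the sample titles. The submitters' processing notes name build mm39, edgeR, HTSeq 0.13.5, HISAT2 2.2.1 and fastp 0.23.0 but not their roles. For 14003 genes the authors deposited FPKM per library, per the file headers, and a library-adjusted signal per library. The deposited table adds a log2 fold change and a p-value per gene from the authors, and a second deposited table repeats the 4891 genes the authors selected. Of 13982 genes matched to GENCODE M21, 13849 had its start and end, so coordinates are given as GRCm38.

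Whole reads were recovered from the FPKM: 100.0% of values above 0 came out whole within 0.00001 reads, 13 genes had more than 1 possible set, and the set nearest the authors' signal was taken. Tested were genes that reached 1 FPKM or more in 3 or more of the 6 libraries, on log2(FPKM + 1), a scale that understates fold changes of low genes, with limma 3.58.1 in R 4.3.3 (eBayes with intensity trend, two-sided) and Benjamini-Hochberg adjustment over all genes tested. The procedure was run on simulated data in which few genes were changed, evenly in both directions. Most genes tested here differed, so that run does not give the rate of false calls in these data. The length behind each FPKM was recovered with the reads, and an alternative level used the longest coding transcript. Sequence shared with other genes was measured as exonic overlap and as 50-base words, in Python 3.11.15 with pandas 2.3.3.

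The members and the gene lists were chosen with earlier results of these data known, so no test was made over them as sets. Named were all 9 members, and, from each pathway list, up to 4 called genes with the largest absolute change, no overlap between groups and a higher mean of at least 5 FPKM. Of each marker list the 3 genes with the highest mean were taken, and for Ern1, Atf6 and Eif2ak3 the 2 genes with the highest Pearson correlation. Alternatives were a pseudocount of 0.1, other filters, scalings, thresholds and variance models, a replicate block and each library left out. Limma voom on the recovered reads, the loss of replicate 3 in both groups and the longest coding transcript were alternatives chosen after seeing the data.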

Additional observations from a re-analysis of the deposited data

How the results depend on the processing

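Over 15 alternative fits the calls of Ern1 (log2 fold change -1.64 to -1.44), Atf6 (-1.67 to -1.26), Xbp1 (-0.83 to -0.55), Atf6b (0.77 to 0.95), Creb3l2 (0.89 to 1.16) and Eif2ak1 (1.03 to 1.29) held. The number of members that rose, 5, was 3 with no filter, under quantile normalization, at an adjusted p under 0.01 and without replicate 3 of both groups, 2 with an absolute log2 fold change of at least 1, and 3 to 5 when 1 library was left out. The calls behind this were those of Eif2ak2 and Eif2ak4 and, at the minimum change, Atf6b (0.90). The estimate for Eif2ak3 changed sign without control replicate 3, ranging from -0.041 to 0.26 as each library was left out, and was -0.096 without replicate 3 of both groups. That for Sparc ranged from -0.12 (without control replicate 1) to 0.88. Over all genes, the minimum change left 1990 higher and 1440 lower, 33.2% of those tested. Leaving out 1 library gave 3387 to 4206 higher and 2454 to 3527 lower. Voom on the recovered reads, chosen after seeing the data, called 3889 higher and 3021 lower. The scalings moved the median of all genes by up to 0.118 on the log2 scale. Among 8 neighbouring pairs in the order with sulfasalazine, those without overlap numbered 3 in FPKM and 6 per longest coding transcript. Of 54 tested named genes, 47 had the same call in all 15 fits. Same-numbered samples did not deviate together (r = 0.04, -0.19 and -0.17), and r for differently numbered samples ran from -0.14 to 0.21. With means of 3 libraries per group, these values cannot settle whether the numbers pair the samples. With the replicate block 3649 genes were higher and 2771 lower, and Eif2ak4 lost its call (adjusted p = 0.0914), as did Runx2 and Krt18 (0.107 and 0.0781), while Pdgfrb gained one (log2 fold change -0.88, adjusted p = 0.0045) and the COPII list had 5 higher and 1 lower genes. Eif2ak2 and Eif2ak4 rest on 200 to 827 reads per library and Eif2ak3 on 365 to 753, which limits what can be said of each.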

Other observations

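Genes of other cell types were also read in these libraries. Of 5 macrophage and osteoclast markers with values, 4 averaged below 1 FPKM, and Cd68, a lysosomal protein gene also active outside macrophages, went from 42.6 ± 12.5 to 22.0 ± 5.70 FPKM (limma log2 fold change -0.91, adjusted p = 0.011). Of 5 fibroblast markers 4 averaged below 1 FPKM, and Pdgfrb measured 5.09, 4.23 and 10.96 FPKM in control replicates 1 to 3 and 2.09, 1.92 and 5.78 FPKM after sulfasalazine, with groups that overlap. Its log2 fold change of -0.88 did not pass the test, but 5 of 15 alternative fits called it lower. The osteoblast marker Spp1, for osteopontin, fell from 1868 ± 309 to 947 ± 104 FPKM, and 18.8% of that gene overlaps another. Sparc, for osteonectin, measured 10.1, 13.6 and 43.6 FPKM in control replicates 1 to 3 and 18.1, 19.6 and 31.7 FPKM after treatment. In both groups replicate 3 had the highest value of Sparc and of Pdgfrb. Krt8 rose from 287 ± 33.4 to 902 ± 58.1 FPKM, where other genes share 26.9% of its 50-base words, while Krt19 fell from 350 ± 43.2 to 154 ± 42.9 FPKM.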
